A study of Mus musculus with 12 samples.

Results

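Eya2, Frrs1l, Dhrs9, Actbl2 and 1700019D03Rik are 5 of the 38924 genes counted in cultured mouse T cells, and they were selected on a steep fall of their read counts in WT cells that received CMA. The fall that chose them was measured in the 6 WT libraries, and 3 of them, Dhrs9, Actbl2 and 1700019D03Rik, stand among the lowest genes with a mean count of at least 50 only because STINGgt/gt reads are part of that mean. Their values in WT cells, between genotypes and in the difference of the CMA effects are therefore given as descriptions without a test. The difference between CMA and DMSO in STINGgt/gt cells was not used by the choice and was tested.

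CD4+ T cells were taken from the spleens of C57BL/6 mice aged 8 to 12 weeks. The mice were WT or STINGgt/gt, the goldenticket line, which carries a missense mutation in Tmem173 (the gene of the adaptor protein STING) and has no functional STING in any tissue. The deposited labels call the second genotype STING KO. After sorting, naive cells grew for 2 days on anti-CD3 and anti-CD28 antibodies, rested for 1 day, and were then kept for 16 h (overnight in the study's methods) with DMSO, the solvent, or with CMA. CMA is 10-carboxymethyl-9-acridanone, a small molecule that binds and activates mouse STING. Each combination of genotype and treatment had 3 libraries, 12 in all, and every cell had been through the same antibody stimulation. The labels do not say whether the 3 libraries of a group came from separate mice, so p-values measure the spread between these libraries. The study's legend for these data calls them biological replicates and does not name the unit.

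Gene-assigned reads numbered 27414450 to 43784910 per library, and no replicate pair was as alike as sampling noise alone would leave it. Tmem173 itself, which a missense mutation need not lower, ran from 183 to 190 CPM (counts for every 1000000 counted reads, scaled with the TMM method of edgeR) in WT cells with DMSO and from 296 to 316 with CMA. Without functional STING it ran from 168 to 181 and from 169 to 184. The CD4+ T cell markers Cd3e, Cd3g, Cd4, Cd5, Cd28 and Lck were abundant in every group, with a summed level of 2704 to 2739 CPM in WT cells with DMSO, 2484 to 2495 with CMA, 2781 to 2811 in STINGgt/gt cells with DMSO and 2814 to 2868 with CMA. In WT cells 3 of the 6 were lower with CMA without overlap, among them Cd3e (253 CPM with DMSO and 160 with CMA), and Cd4 was higher (436 and 498 CPM). B cell transcripts were present too: the summed level of 6 B cell markers was 196 to 204 CPM in WT cells with DMSO, 282 to 302 with CMA, 95.7 to 98.5 in STINGgt/gt cells with DMSO and 94.3 to 95.4 with CMA.

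The 5 genes belong to separate families. Eya2 encodes a transcriptional coactivator of the eyes absent family, which binds homeodomain proteins of the sine oculis family and also carries a tyrosine phosphatase domain. Frrs1l encodes a protein that helps AMPA-type glutamate receptors assemble in the endoplasmic reticulum of neurons. Dhrs9 encodes a short-chain dehydrogenase/reductase that acts on retinol and on hydroxysteroids. Actbl2 encodes a beta-actin-like protein, also called kappa-actin. 1700019D03Rik encodes a small membrane-bound A-kinase anchoring protein (smAKAP), which tethers the regulatory subunit of protein kinase A (PKA).

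In the GRCm38 coordinates of the deposited table, Eya2 (ENSMUSG00000017897) lies on chromosome 2 from 165595032 to 165771727 on the plus strand. Dhrs9 (ENSMUSG00000027068) lies on the same chromosome from 69380445 to 69404533, also on the plus strand. Frrs1l (ENSMUSG00000045589) is on the minus strand of chromosome 4 from 56957173 to 56990391. Actbl2 (ENSMUSG00000055194) is on the plus strand of chromosome 13 from 111255013 to 111257749. 1700019D03Rik (ENSMUSG00000043629) is on the minus strand of chromosome 1 from 52922324 to 52963260. The genes are built differently: GENCODE M21 joins the exons of Eya2 into 18 blocks and those of 1700019D03Rik into 9, gives Frrs1l and Dhrs9 5 each, and gives Actbl2 a single exon.

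Actbl2 is close in sequence to Actb, the beta-actin gene, whose transcripts were far more abundant in these cells. Its coding sequence of 1128 bases was identical to that of Actb at 79.9% of aligned positions, and the longest identical run was 20 bases. None of the 2688 windows of 50 bases in the Actbl2 transcript occurred in the transcript of another gene. The stretch below, coding bases 61 to 120 of Actbl2 (chr13:111255193-111255252, plus strand) and 58 to 117 of Actb (chr5:142905570-142905629, minus strand), is shown because it gives a view of how the genes differ. Capitals mark the 14 positions that differ.
Actbl2: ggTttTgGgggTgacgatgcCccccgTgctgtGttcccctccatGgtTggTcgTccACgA
Actb: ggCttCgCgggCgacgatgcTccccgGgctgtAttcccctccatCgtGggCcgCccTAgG
Shared windows were also absent in Eya2 and made up 0.529% of the windows in Frrs1l and 0.213% in Dhrs9. In 1700019D03Rik they made up 26.9%, so reads from that part of its transcript could have gone to no gene, since reads that align to several places were not counted.

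In WT cells the 5 transcripts dropped to between 0 and 8 reads per library with CMA. They are the 5 lowest log2 fold changes among the 11199 genes with a mean count of at least 50 over the 12 libraries. All 5 were read 79 times or more in every STINGgt/gt library. All 5 passed the filter on low counts in the fit of 4 groups. Actbl2, with 11 to 14 reads in the WT libraries with DMSO, did not pass it when the WT libraries were taken alone.

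**Figure D1:**
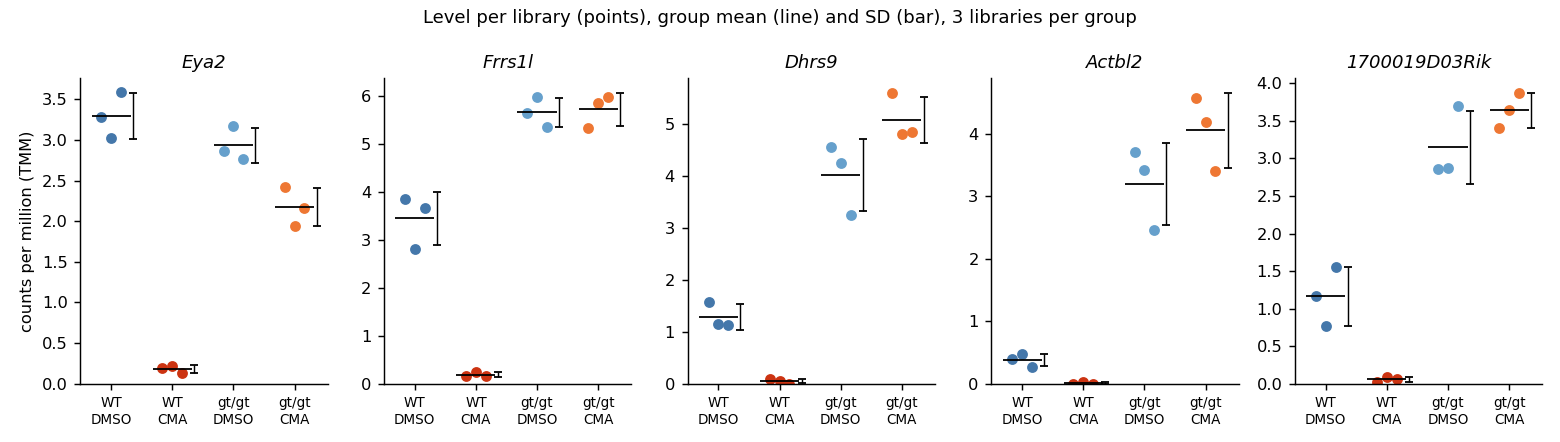
Level of each gene in CPM (vertical axes, starting at 0) in the 4 groups, with 1 point per library, the group mean as a line and the SD as a bar (n = 3). The WT libraries with CMA sit near 0 in every panel, and in all panels but that of Eya2 the STINGgt/gt libraries with DMSO sit above the WT libraries with DMSO.

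Eya2 was read 90, 90 and 147 times in the WT libraries with DMSO and 7, 7 and 4 times in those with CMA. Its level was 3.29 ± 0.283 CPM with DMSO and 0.179 ± 0.0471 CPM with CMA (SD, n = 3 each). The STINGgt/gt libraries held 111, 116 and 89 reads with DMSO against 91, 86 and 83 with CMA, or 2.94 ± 0.212 and 2.18 ± 0.239 CPM. The WT libraries with CMA are the low ones. The STINGgt/gt libraries with DMSO overlap the WT libraries with DMSO, and those with CMA lie below both.

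Frrs1l was read 106, 84 and 150 times in WT cells with DMSO and 6, 8 and 5 times with CMA. The corresponding levels were 3.45 ± 0.553 and 0.191 ± 0.0489 CPM. Without functional STING, DMSO gave 219, 218 and 172 reads and CMA gave 200, 259 and 230, or 5.65 ± 0.307 and 5.72 ± 0.348 CPM. Both STINGgt/gt groups lay above every WT library, and they overlapped each other.

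Dhrs9 was read 43, 34 and 46 times in WT cells with DMSO and 3, 2 and 0 times with CMA. That is 1.28 ± 0.251 CPM against 0.0485 ± 0.0434 CPM. The STINGgt/gt libraries had 177, 155 and 104 reads under DMSO, rather fewer than the 210, 212 and 186 under CMA. Their levels were 4.01 ± 0.691 and 5.07 ± 0.448 CPM. All 3 libraries with CMA lay above all 3 with DMSO in STINGgt/gt cells, the reverse of the order in WT cells.

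Actbl2 was the scarcest of the 5 in WT cells, with 11, 14 and 11 reads with DMSO and 0, 1 and 0 with CMA. The levels were 0.380 ± 0.102 and 0.0103 ± 0.0178 CPM, and 3 reads correspond to 0.0837 to 0.0945 CPM in the WT libraries with CMA. STINGgt/gt cells had many more reads, 144, 125 and 79 with DMSO and 172, 185 and 131 with CMA. These are levels of 3.20 ± 0.655 and 4.06 ± 0.598 CPM, which overlap.

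1700019D03Rik was read 32, 23 and 64 times in WT cells with DMSO and 1, 3 and 2 times with CMA. Its level went from 1.17 ± 0.394 to 0.0612 ± 0.0324 CPM. For STINGgt/gt cells 111, 105 and 119 reads were found under DMSO and 128, 161 and 149 under CMA, or 3.15 ± 0.483 and 3.64 ± 0.232 CPM. Every STINGgt/gt library was above every WT library, and the STINGgt/gt groups overlapped.

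The falls in WT cells can be written as a ratio of the reads summed over 3 libraries. For Eya2 the level with DMSO was 18.5 times that with CMA, with an exact 95% interval of 11.5 to 31.6 from 327 and 18 reads. The ratio was 18.2 (11.5 to 30.6) for Frrs1l, from 340 and 19 reads. The other ratios rest on fewer reads with CMA and have wide intervals: 20.2 (9.001 to 56.1) for 1700019D03Rik from 119 and 6 reads, 25.0 (10.4 to 78.4) for Dhrs9 from 123 and 5, and 36.6 (6.17 to 1486) for Actbl2 from 36 and 1. These intervals cover counting error only. They leave out the spread between libraries and the choice of the genes by these same reads, so 95% is not their true coverage. They overlap, and the order of the 5 falls is not resolved at this depth. In edgeR's fit the log2 fold changes were -4.18 for Eya2, -4.16 for Frrs1l, -4.56 for Dhrs9, -4.78 for Actbl2 and -4.24 for 1700019D03Rik. The WT groups did not overlap for any of the 5, as genes chosen for a steep fall would show. Groups that do not overlap, lower with CMA, were found for 37.6% of the 13811 genes tested. The WT groups also stood apart in library measures: reads outside genes made up 4.86% to 5.47% of entries with DMSO and 6.79% to 7.16% with CMA, and alignments that were not unique 29.6% to 30.3% and 27.8% to 27.9%. In STINGgt/gt cells reads outside genes made up 5.98% to 6.54% with DMSO and 6.02% to 6.33% with CMA. The part of these measures in the falls was not tested. In bulk RNA, fewer cells that carry a transcript and less of it per cell cannot be told apart.

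The next lowest genes by the same ranking were Bdh2 (log2 fold change -4.05), Serpinb5 (-3.97), Dntt (-3.97), Spp1 (-3.80) and Trim66 (-3.78), just outside the 5. Bdh2 encodes a hydroxybutyrate dehydrogenase, Serpinb5 a serpin, Dntt the terminal deoxynucleotidyl transferase of lymphocyte precursors, Spp1 the secreted protein osteopontin and Trim66 a member of the tripartite motif family. The ranking depends on the minimum count, because genes with few reads reach larger fitted changes. At a minimum mean count of 20 the 5 genes ranked 1, 2, 4, 6 and 7 among 12295, and with no minimum they ranked from 11 to 21 among all 13811. It also depends on which libraries the mean covers. Over the 6 WT libraries alone, Eya2 and Frrs1l ranked 1 and 2 among 11171 genes at a minimum of 50 and the other 3 did not reach it. At a minimum of 20 Dhrs9, 1700019D03Rik, Eya2 and Frrs1l ranked 2, 5, 7 and 8 among 12295, and Actbl2 did not reach it.

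For STINGgt/gt cells, 0 of the 5 genes passed the threshold of an adjusted p of 0.05 for CMA against DMSO (edgeR's quasi-likelihood test, Benjamini-Hochberg adjustment over 13811 genes). Of all genes tested in this comparison, 0.398% passed it as higher and 0.920% as lower with CMA. Without adjustment, 2 of the 5 had a p under 0.05, Eya2 and Dhrs9, against 5.94% of all genes as higher and 7.02% as lower. DESeq2 also called 0 of the 5.

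Eya2 had the largest change of the 5 in STINGgt/gt cells, with a log2 fold change of -0.44 (SE 0.127, 95% interval -0.71 to -0.17, edgeR adjusted p = 0.120). All 3 libraries with CMA were below all 3 with DMSO, which holds for 11.3% of the genes tested. Over the alternative settings its adjusted p ranged from 0.0520 to 0.368. For Dhrs9 the value was 0.33 (SE 0.142, 0.03 to 0.63, edgeR adjusted p = 0.337), with all libraries with CMA above those with DMSO, as for 11.8% of the genes. The adjusted p of Dhrs9 ranged from 0.120 to 0.813 over the alternatives.

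For the remaining 3 the groups overlapped. Actbl2 had a log2 fold change of 0.33 (SE 0.157, edgeR adjusted p = 0.389) and 1700019D03Rik one of 0.22 (SE 0.156, edgeR adjusted p = 0.606). That of Frrs1l was 0.02 (SE 0.105, edgeR adjusted p = 0.970). The 95% intervals were -0.00116 to 0.67 for Actbl2, -0.11 to 0.55 for 1700019D03Rik and -0.21 to 0.24 for Frrs1l. Falls of the size seen in WT cells lie outside all 5 intervals. A p above the threshold does not show that the levels were equal.

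**Figure D2:**
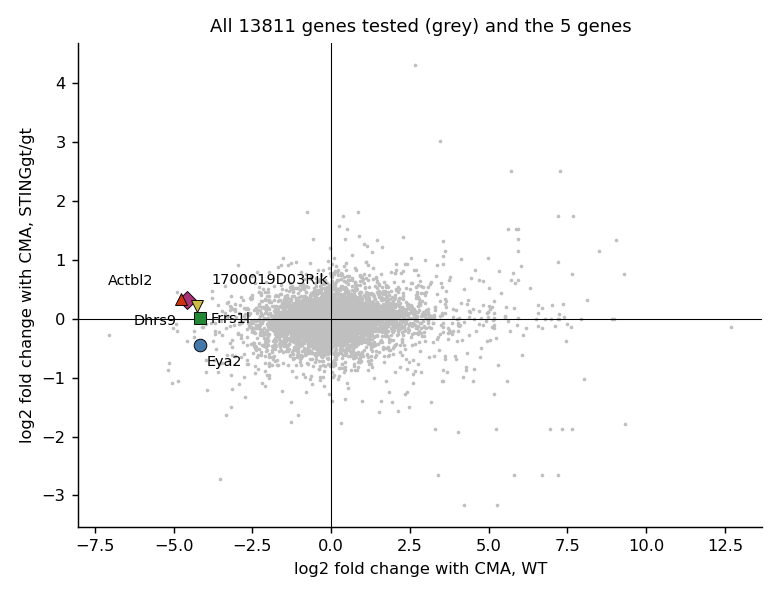
Log2 fold change with CMA in WT cells (horizontal axis) against that in STINGgt/gt cells (vertical axis) from edgeR for all 13811 genes tested (grey points), with the 5 genes as coloured symbols. The 5 lie between -4.78 and -4.16 on the horizontal axis and between -0.44 and 0.33 on the vertical axis.

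The difference of these log2 changes, WT minus STINGgt/gt, was -3.74 for Eya2, -4.17 for Frrs1l, -4.46 for 1700019D03Rik, -4.88 for Dhrs9 and -5.11 for Actbl2. Since the WT libraries chose the genes, no p is given for it.

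With DMSO alone the genotypes already differed for 4 of the 5 genes. Actbl2 had the largest gap, with a mean level in STINGgt/gt cells 8.42 times that in WT cells. Dhrs9 was at 3.15 times, 1700019D03Rik at 2.70 times and Frrs1l at 1.64 times the WT level, all without overlap between the groups. Eya2 was at 0.891 times the WT level and its groups overlapped. These are descriptions, because the WT libraries with DMSO helped to choose the genes and because a minimum on the mean over 12 libraries favours genes that are high in STINGgt/gt cells. Dhrs9, Actbl2 and 1700019D03Rik, the genes with the widest gaps, meet that minimum through their STINGgt/gt reads. Groups that do not overlap and are higher in STINGgt/gt cells with DMSO were found for 22.6% of all genes tested, and lower ones for 25.3%. All 6 B cell markers were lower in STINGgt/gt than in WT cells with DMSO without overlap, as were 5 of 7 myeloid markers and 4 of 6 markers of CD8 T and natural killer cells. Higher without overlap were 1 marker of CD8 T and natural killer cells, Eomes (18.0 CPM in WT and 31.4 in STINGgt/gt cells), and 2 of the 6 CD4+ T cell markers. The part of these markers in the gaps was not tested. With CMA the STINGgt/gt level was 12.1 times the WT level for Eya2, 30.0 times for Frrs1l, 59.5 times for 1700019D03Rik, 105 times for Dhrs9 and 394 times for Actbl2, ratios that rest on 5 reads for Dhrs9 and 1 read for Actbl2 in the WT libraries with CMA. In edgeR's fit the log2 difference ran from 6.05 to 7.19 for Dhrs9 and from 7.73 to 10.2 for Actbl2 when 1 library was left out, highest without WT replicate 1 and WT replicate 2 with CMA, respectively. The value of 10.2 was fitted with 0 Actbl2 reads left in WT cells with CMA, so it depends on the fit and is no bound. Over the other settings the log2 difference went down to 5.59 for Dhrs9 and 5.95 for Actbl2. All 5 lay higher without overlap, as did 39.2% of all genes tested.

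Of the 5 next lowest genes 1 was higher in STINGgt/gt cells with DMSO, Spp1, at 2.35 times the WT level. The STINGgt/gt level was 0.835 times for Bdh2, 0.709 times for Trim66 and 0.606 times for Dntt. Serpinb5 was barely read in STINGgt/gt cells, with 2, 3 and 2 reads with DMSO against 140, 196 and 311 in WT cells. Of these 5 genes Dntt passed the test for CMA against DMSO in STINGgt/gt cells, where it fell from 16.3 ± 1.20 to 9.94 ± 0.901 CPM (log2 fold change -0.71, SE 0.0810, edgeR adjusted p = 0.000581), and the other 4 did not.

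Levels of different genes can be compared once divided by exon length. Per kilobase of exon, Eya2 was the highest of the 5 in WT cells with DMSO, at 1.11 ± 0.0955 CPM per kb, and did not overlap Frrs1l at 0.505 ± 0.0811. Dhrs9 (0.298 ± 0.0587) and 1700019D03Rik (0.269 ± 0.0911) followed and overlapped each other. Actbl2 was lowest at 0.139 ± 0.0374 CPM per kb, below every library of the others. The order was another in STINGgt/gt cells with DMSO. Actbl2 was at the top with 1.17 ± 0.239 CPM per kb, followed by Eya2 (0.990 ± 0.0717), Dhrs9 (0.937 ± 0.161), Frrs1l (0.829 ± 0.0450) and 1700019D03Rik (0.726 ± 0.112), and each neighbour in that order overlapped the next. With CMA in STINGgt/gt cells Actbl2 was at 1.48 ± 0.218 and Dhrs9 at 1.18 ± 0.105 CPM per kb, overlapping each other. Both lay above 1700019D03Rik (0.841 ± 0.0536), Frrs1l (0.839 ± 0.0510) and Eya2 (0.734 ± 0.0807). The length used for 1700019D03Rik is that of GENCODE M21, whose gene model extends beyond the deposited one, and it includes the 26.9% of windows whose reads could have gone uncounted. Its level per kb may therefore be too low, and its place in these orders is not settled.

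**Figure D3:**
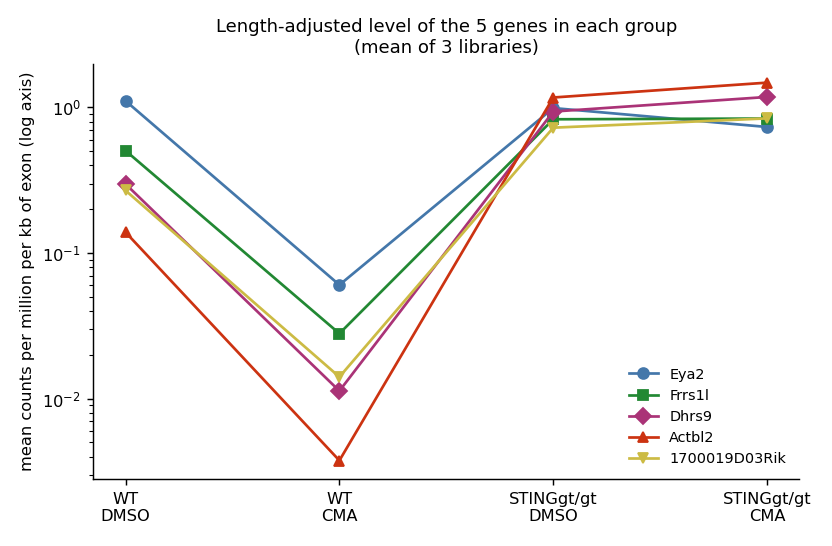
Mean level of each gene per kilobase of exon (vertical axis, log scale, CPM per kb, mean of 3 libraries) in the 4 groups. Lines join the means of a gene. The 5 genes are spread from 0.139 to 1.11 in WT cells with DMSO and from 0.726 to 1.17 in STINGgt/gt cells with DMSO.

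Some markers of other cells were read at levels like those of the 5 genes or above them. Of 4 neuron markers, Rbfox3, Snap25 and Syt1 were at or near 0 in all groups, and Tubb3 made up most of the summed level. That sum was 1.10 to 1.28 CPM in WT cells with DMSO and 0.370 to 0.642 with CMA, without overlap, and 1.11 to 1.67 and 0.878 to 1.24 CPM in STINGgt/gt cells. In WT cells Tubb3 alone averaged 1.15 CPM with DMSO and 0.529 with CMA. Cdh5, Col1a2 and Pdgfrb, endothelial and stromal markers, were below 0.5 CPM on average in every group. With Pecam1, which T cells also express, and Col1a1, that list summed to 51.6 to 52.0 CPM in WT cells with DMSO and 27.2 to 33.3 with CMA. The myeloid markers Lyz2 and Itgam were lower in WT cells with CMA (1.16 and 1.02 CPM) than with DMSO (3.25 and 3.31 CPM), and the summed myeloid list was 59.4 to 62.6 CPM with CMA and 48.2 to 52.2 with DMSO (3 of 7 lower without overlap and 1 higher). Cst3, which made up most of that sum, was the 1 that was higher, with 55.7 CPM with CMA and 38.6 with DMSO. Markers of CD8 T and natural killer cells summed to 68.2 to 72.8 CPM with CMA and 75.3 to 79.5 with DMSO. Of these 6 markers 4 were lower with CMA without overlap and 1 was higher. Of the 6 B cell markers 4 were higher and none was lower. The part of these cells in the falls was not tested.

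The genes most like each of the 5 over the 12 libraries were taken as those with the smallest root mean square difference of log2 levels, after centring each gene on its own mean (12294 genes with a mean count of at least 20 compared). For Eya2 they were Bdh2 (0.229), Car12, a carbonic anhydrase gene (0.295), and Armcx1 (0.306). The median over all genes compared was 1.69. Bdh2 stood at 8.37 CPM in WT cells with DMSO, 0.503 with CMA, 6.99 in STINGgt/gt cells with DMSO and 6.35 with CMA. For Frrs1l they were Spp1 (0.356), Car12 (0.418) and 1700019D03Rik (0.494).

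1700019D03Rik was most like Egr4, a zinc finger gene of the early growth response family (0.413), and then Frrs1l (0.494) and Spp1 (0.530). Dhrs9 and Actbl2 were nearest to each other (0.860), but this distance was larger than those above. After each other came 1700019D03Rik (0.877) and Frrs1l (0.923) for Dhrs9, and Egr4 (0.960) and 1700019D03Rik (0.994) for Actbl2. The median over all genes compared was 2.73 for Dhrs9 and 3.06 for Actbl2. These likenesses are descriptions over 12 shared libraries, and choosing the 5 for the same fall favours likeness among them.

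Sequence before the start site was available from RefSeq (GRCm38.p6) for 4 of the 5 genes, all but Eya2. In each window of 250 bases 7 motifs were searched on both strands: the AP-1 site TGANTCA, the GAS element TTCNNNGAA, the ISRE core (GAAA repeated after a gap of 2 bases), the RUNX site TGTGGT, the TATA box TATAAA, the CArG box and the NF-kB site. RefSeq gives 1 window each for Frrs1l, Dhrs9 and Actbl2 and 7 for 1700019D03Rik, of which the window nearest to the deposited 5' end, with its start site 29 bases from it, was used. The windows of Dhrs9, Actbl2 and 1700019D03Rik are printed because these genes had the lowest levels in WT cells with CMA, and capitals mark motif matches. They are chr2:69380212-69380461 (plus strand), chr13:111254763-111255012 (plus strand) and chr1:52963232-52963481 (minus strand).
Dhrs9: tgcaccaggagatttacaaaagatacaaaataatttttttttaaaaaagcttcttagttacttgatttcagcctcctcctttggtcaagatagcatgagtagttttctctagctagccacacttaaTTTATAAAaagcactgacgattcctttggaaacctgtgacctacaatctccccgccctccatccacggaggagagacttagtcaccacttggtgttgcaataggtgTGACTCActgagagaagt
Actbl2: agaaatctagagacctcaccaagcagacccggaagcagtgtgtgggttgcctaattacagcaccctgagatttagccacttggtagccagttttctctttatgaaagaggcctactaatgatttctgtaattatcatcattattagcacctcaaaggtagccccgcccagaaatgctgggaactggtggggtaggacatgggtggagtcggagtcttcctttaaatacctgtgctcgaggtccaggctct
1700019D03Rik: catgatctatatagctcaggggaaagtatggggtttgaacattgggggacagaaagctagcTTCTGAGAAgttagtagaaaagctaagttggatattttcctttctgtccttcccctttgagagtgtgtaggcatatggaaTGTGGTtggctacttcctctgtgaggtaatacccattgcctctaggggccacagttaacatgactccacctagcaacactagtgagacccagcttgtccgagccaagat
The Dhrs9 window held an AP-1 match from 18 to 12 bases before the start site and overlapping TATA matches, 1 on each strand, between 124 and 117 bases before it. An AP-1 match occurs in 6.75% of all 32851 windows and a TATA match in 12.4%. The 1700019D03Rik window held a GAS match from 189 to 181 bases before the start site (in 7.02% of windows) and a RUNX match from 109 to 104 bases before it (14.05%). Neither the Actbl2 window nor the Frrs1l window held any of the 7. The other 6 windows of 1700019D03Rik, with start sites 8786 to 29397 bases from the deposited end, held none either, and no motif was found in more than 1 of the 4 genes. The GC content of the 4 windows used was 40.4% in Dhrs9, 46.0% in 1700019D03Rik, 48.0% in Actbl2 and 61.2% in Frrs1l, around a median of 52.4% over all windows. Over the 7 windows of 1700019D03Rik it ran from 38.8% to 64.8%.

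Related genes were read from 5 lists of families and pathways, with the 5 genes themselves left out. Of 128 listed genes 82 were tested, and with CMA in WT cells 18 rose and 40 fell by edgeR's test. Over all genes tested, 33.0% rose and 37.4% fell, with a median log2 fold change of -0.04. Of the 82, 0 passed the threshold in STINGgt/gt cells (19 at an unadjusted p under 0.05, beside 5.94% of all genes as higher and 7.02% as lower, and 1 with DESeq2).

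Among relatives of Eya2, Eya3 was the one well expressed, at 95.1 ± 5.39 CPM in WT cells with DMSO and 100.4 ± 2.45 with CMA (log2 fold change 0.08, edgeR adjusted p = 0.147). Eya1 was read 6, 10 and 22 times with DMSO and 7, 4 and 6 times with CMA in WT cells, and Eya4 was not read. Of 11 genes of the EYA, sine oculis and DACH families 4 were tested and 1 fell. That was Dach2, a nuclear cofactor of the same network, which went from 37, 45 and 49 reads to 17, 15 and 7 (log2 fold change -1.77, SE 0.269, edgeR adjusted p = 1.93e-05). The median of the 4 was -0.17.

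Frrs1, the nearest relative of Frrs1l and a ferric reductase, fell as well, but less steeply. It went from 438, 368 and 633 reads in WT cells with DMSO to 186, 153 and 159 with CMA (log2 fold change -1.55, SE 0.0941, edgeR adjusted p = 2.89e-10). Frrs1 in STINGgt/gt cells stood at 20.2 ± 0.916 CPM with DMSO and 21.5 ± 0.567 with CMA (log2 fold change 0.09, edgeR adjusted p = 0.656). Of 22 AMPA receptor assembly genes 12 were tested, of which 3 rose and 5 fell in WT cells, with a median of -0.04. The genes of the receptor subunits themselves were hardly read. Gria1, Gria2 and Gria4 had 0 reads in every library, and Gria3 had at most 12 in any. Cnih3, a cornichon protein that accompanies AMPA receptors, went from 13, 7 and 13 reads to 1, 0 and 0 (log2 fold change -4.65, SE 0.727, edgeR adjusted p = 2.61e-05). With 1 read in the CMA group the size of this fall is poorly fixed, and leaving out 1 library gave -6.59 to -4.22, the lowest without WT replicate 1 with CMA, which held that read. With 0 reads left, that value depends on the fit. Cnih3 passed the filter on low counts through its STINGgt/gt libraries, which held 12 to 27 reads. Like Actbl2 it was not tested when the WT libraries were taken alone. Cacng4, an auxiliary subunit of the same receptors, went from 29, 32 and 29 reads to 8, 8 and 10 (-1.81). Cpt1c, a brain form of carnitine palmitoyltransferase found in AMPA receptor complexes, rose from 21, 23 and 27 reads to 86, 63 and 70 (1.59).

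Of 19 retinoid and DHRS enzyme genes tested 4 rose and 8 fell, with a median of -0.09. Within the DHRS family Dhrs1 (log2 fold change -0.51) and Dhrs7 (-0.45) fell in WT cells and Dhrs4 rose (0.39). Dhrs3, Dhrs7b, Dhrs11 and Dhrs13 did not pass the test, with values of 0.37, -0.08, -0.09 and 0.11. Dhrs2 and Dhrs7c were not read in any library. The larger changes of the list were those of Stra6, a receptor for retinol-binding protein, which fell from 8.73 ± 0.479 to 1.90 ± 0.373 CPM, and of Crabp2, a carrier of retinoic acid, which fell from 38.8 ± 3.35 to 13.8 ± 2.38 CPM. Rdh12, a retinol dehydrogenase, rose from 10.6 ± 0.663 to 30.6 ± 1.20 CPM.

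Both abundant actins fell in WT cells, Actg1 more than Actb. Actb went from 6197 ± 266 to 5315 ± 298 CPM (log2 fold change -0.22, edgeR adjusted p = 0.000683) and Actg1, the gamma-actin gene, from 782 ± 28.4 to 470 ± 16.6 CPM (-0.73, edgeR adjusted p = 3.69e-09). The muscle actins Acta1, Acta2, Actc1 and Actg2 had at most 6 reads in any library. Of 22 actin genes and regulators tested 17 fell and 3 rose, with a median log2 fold change of -0.31. Vcl, the focal adhesion protein vinculin (-0.84), Cfl1, the actin-severing protein cofilin (-0.58), and Coro1a, the leukocyte coronin (-0.56), had the largest changes in the list outside the actin genes themselves. Unlike Actbl2, neither Actb nor Actg1 was higher in STINGgt/gt than in WT cells with DMSO, where their STINGgt/gt levels were 5777 ± 172 and 548 ± 11.3 CPM.

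Of 25 PKA and anchoring protein genes tested 8 rose and 9 fell, with a median of 0.07. Akap7, an anchoring protein of the plasma membrane, rose from 113, 138 and 130 reads to 458, 406 and 444 (log2 fold change 1.74, edgeR adjusted p = 9.35e-10). Akap13, another anchoring protein, rose as well (0.88). Akap12, a large scaffold protein, fell from 11.7 ± 1.49 to 5.91 ± 0.548 CPM (-0.99).

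**Figure D4:**
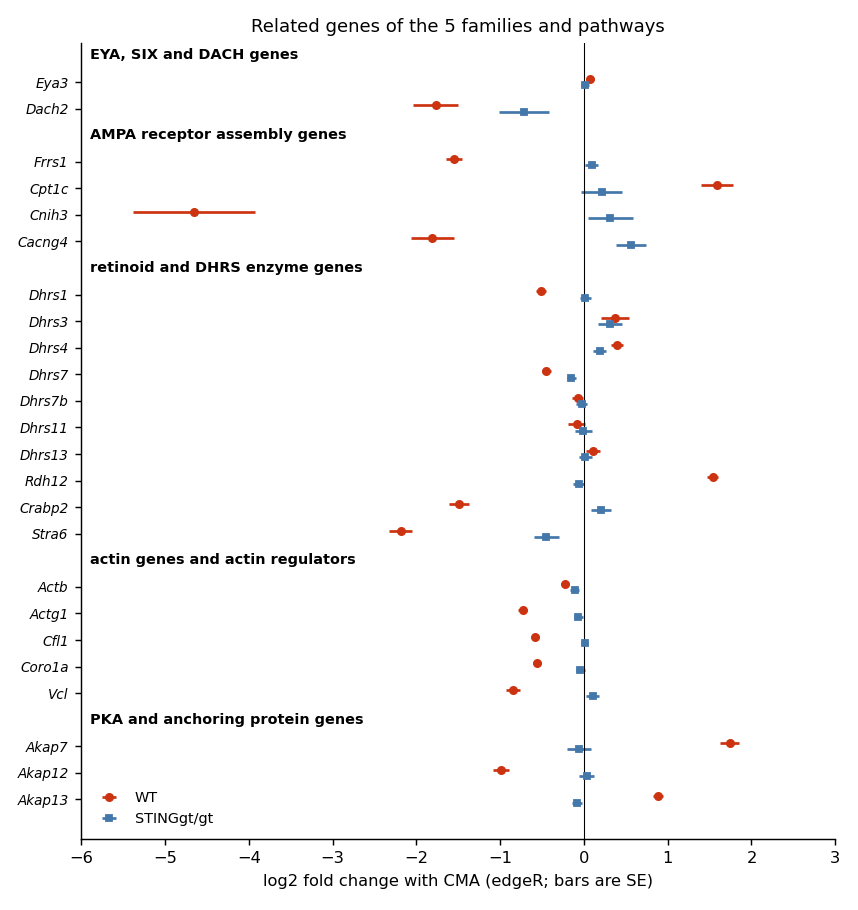
Log2 fold change with CMA (horizontal axis, edgeR estimate with SE) in WT (circles) and STINGgt/gt cells (squares) for the tested family relatives of the 5 genes and up to 3 further genes per list. None passed the threshold in STINGgt/gt cells, and in WT cells Cnih3 has the lowest value at -4.65, which rests on 1 read with CMA.

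Genes beside the 5 on the chromosome were read as well. The nearest protein-coding neighbours of Eya2 are Slc2a10, a glucose transporter gene 75115 bases away, which fell in WT cells from 21, 22 and 25 reads to between 3 and 5 (log2 fold change -2.50, edgeR adjusted p = 2.76e-05) and had at most 5 reads in any STINGgt/gt library, and Zmynd8, 12425 bases away, which rose (0.27). Beside Frrs1l, Epb41l4b, 1581 bases away, fell from 34 to 65 reads to 11 in each library (-2.07, edgeR adjusted p = 8.40e-07). Tmem245 on the other side fell slightly (-0.29). Hibch, 1338 bases from 1700019D03Rik and a gene of valine breakdown, fell from 35.7 ± 1.49 to 14.2 ± 1.40 CPM (-1.33). The other side of 1700019D03Rik is taken by Mstn, which had at most 1 read. Dhrs9 lies between Abcb11, which was not read, and Lrp2, with at most 2 reads. Actbl2 stands alone, with Gpbp1 167931 bases away (0.07, edgeR adjusted p = 0.380) and Plk2 854169 bases away, which fell (-0.57).

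Within 500 kb of the 5 start sites 34 other genes were tested, of which 24 fell, 3 rose and 7 did not pass the threshold in WT cells, beside 37.4% and 33.0% of all genes. Their log2 fold changes ran from -2.50 to 0.80 with a median of -0.37. Because the 5 were picked as the lowest genes, that no neighbour past the minimum count lies lower follows from the choice. Around 1700019D03Rik all 8 fell, and around Actbl2 none of 3 fell.

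**Figure D5:**
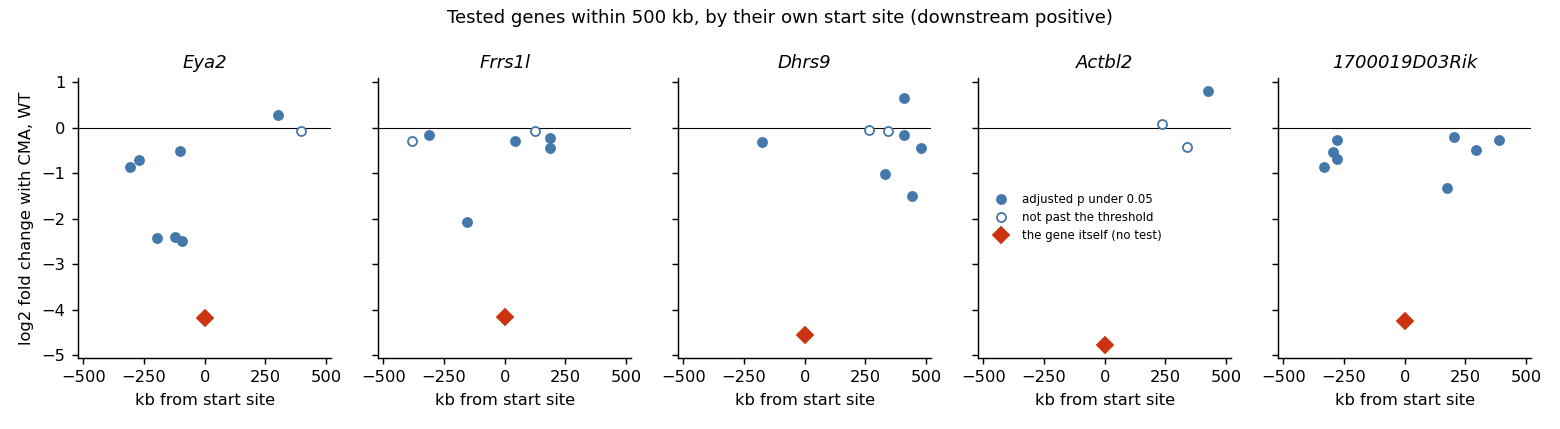
Log2 fold change with CMA in WT cells (vertical axis) of the tested genes within 500 kb of each start site, by the distance of their own start site in kb (horizontal axis, downstream positive). Diamonds are the 5 genes, filled circles other genes with an edgeR adjusted p under 0.05 and open circles the rest. The lowest of the other genes, Slc2a10, is at -2.50.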

How the data were processed

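RNA was measured in 12 libraries of mouse CD4+ T cells, made with a stranded mRNA kit. The authors deposited raw read counts per Ensembl gene and a log2 expression table, and the log2 values the authors deposited equal the log2 of the count plus 0.5 after 1 factor per library. The submitters' processing notes name cutadapt 1.3, STAR 2.4.0f1, HTSeq 0.6.1, RSEM 1.2.16 and GRCm38. The strand setting of the counting is not given in the sources used here. Alignments that were not unique (27.8% to 30.3% of entries), reads outside genes (4.86% to 7.16%, lowest in WT with DMSO and highest in WT with CMA) and ambiguous reads were kept out of library sizes.

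The 5 genes and the lists of related genes and markers were chosen with earlier results of these data known. Counts were fitted with edgeR 4.0.16 (R 4.3.3) by glmQLFit and glmQLFTest, with TMM scaling, filterByExpr by group (13811 genes) and the 4 groups in 1 model. Genes were called at a p of 0.05 after Benjamini-Hochberg adjustment. CPM are counts for every 1000000 reads of the TMM-adjusted library size, and levels per kb used GENCODE M21 exon lengths. Ratios of summed counts carry exact conditional (Clopper-Pearson) 95% intervals. Intervals of log2 changes come from the fit's SE.

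Genes named besides the 5 are the EYA, FRRS1, DHRS and conventional actin families, up to 3 further called genes per list with the largest change in WT cells, 3 genes per member with the most similar profile, the 5 next lowest genes at a mean count of at least 50, and the nearest protein-coding neighbours. Marker lists cover CD4 T, B, myeloid, CD8 T and natural killer, stromal and endothelial cells and neurons. Of the list symbols 3 were matched through older names.

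On simulated data (13554 genes, CMA in WT) edgeR recovered 49 of 50 genes at a log2 fold of -3 and 48 of 50 at -2. No change was simulated in STINGgt/gt cells, so this does not measure the power of the test made there. The alternatives were a replicate block, leaving out each library, a fit of only the 2 groups compared, DESeq2 1.42.0, limma-voom, limma (3.58.1) on the log2 table, scaling by library size, filtering nothing or keeping genes with 10 or more reads everywhere, a threshold of 0.01 and a prior count of 2. The precision is set by 3 libraries per group and by the low counts.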

Additional observations from a re-analysis of the deposited data

Results flagged for a closer look

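For Dhrs9 the order of the groups was opposite in the genotypes: every WT library with CMA was below every WT library with DMSO, and every STINGgt/gt library with CMA was above those with DMSO (log2 fold change 0.33). The order was the same for Trim66, with a STINGgt/gt value of 0.35. Neither STINGgt/gt value passed the test (edgeR adjusted p = 0.337 for Dhrs9, 0.120 to 0.813 over the alternatives, and 0.244 for Trim66), and 11.8% of all genes have STINGgt/gt groups in that order without overlap. For both the difference between genotypes was not tested, since the WT libraries chose them.

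For related genes the CMA effect in WT minus that in STINGgt/gt was tested in edgeR, and 15 of the 82 listed genes differed as higher in WT and 33 as lower, beside 27.2% and 31.6% of all genes. Genes named for a large change in WT cells were picked with the WT values, so their differences are descriptions. Among those named, the log2 differences of the AMPA receptor genes were -1.64 for Frrs1, 1.38 for Cpt1c, -4.97 for Cnih3 and -2.37 for Cacng4. That of Dach2 was -1.06. Among retinoid and DHRS genes they were -0.53 for Dhrs1, -0.30 for Dhrs7, 1.60 for Rdh12, -1.69 for Crabp2 and -1.74 for Stra6. Actin genes gave -0.66 for Actg1, -0.59 for Cfl1, -0.52 for Coro1a and -0.95 for Vcl, and anchoring proteins 1.80 for Akap7, -1.03 for Akap12 and 0.97 for Akap13. Among the neighbours they were -2.90 for Slc2a10, with at most 5 reads in any STINGgt/gt library, 0.25 for Zmynd8, -0.45 for Tmem245, -2.30 for Epb41l4b, -0.50 for Plk2 and -1.36 for Hibch. The values above are those of named genes that passed the test of the difference, so they do not cover all genes tested. Among them, for the genes named by family (Frrs1, Dhrs1, Dhrs7 and Actg1) and the neighbours, the edgeR adjusted p ran from 2.71e-09 (Hibch) to 0.0178 (Tmem245). Actb (-0.11, edgeR adjusted p = 0.185) and Dhrs4 (0.21, edgeR adjusted p = 0.105), which passed the test in WT cells, did not pass that of the difference. Eya3, Dhrs3, Dhrs7b, Dhrs11, Dhrs13 and the neighbour Gpbp1 did not pass it either.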

How the results depend on the processing

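The count of 0 of 5 genes past the threshold in STINGgt/gt cells held in all 20 alternatives that gave a value, the replicate block among them (0 of 5, 3 at an unadjusted p under 0.05). Not all of these 20 were independent checks. The stricter threshold could not give a higher count. The fits without a WT library kept every STINGgt/gt library, so they could change the count only through steps shared by all libraries. When 10 reads were asked of all libraries no member was left, and among the WT libraries alone Actbl2 was not tested. The labels do not say that a replicate number marks a shared animal or day. Deviations of same-numbered libraries with DMSO and CMA correlated at 0.00195, 0.104 and 0.132 in WT and at 0.0634, 0.0597 and 0.0585 in STINGgt/gt, against -0.15 to 0.056 and -0.061 to 0.00346 for different numbers. In STINGgt/gt every library thus correlated best with its own number, a hint from the data, and in WT those of replicate 1 did not. The sample names in the labels begin with the same digit in 5 of the 6 same-numbered pairs, all but STINGgt/gt replicate 2, and no label says what that digit marks.

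The falls in WT cells kept their sign throughout, which the choice of genes with a steep fall made all but certain. A prior count of 2 drew them to -3.83 for Eya2, -3.83 for Frrs1l, -3.63 for Dhrs9, -2.68 for Actbl2 and -3.43 for 1700019D03Rik, which is how that setting acts on low counts. It drew the fall of Cnih3 to -2.56 and the difference of the CMA effects, WT minus STINGgt/gt, to -3.0 for Actbl2 and -3.95 for Dhrs9. Leaving out 1 library gave differences of -7.06 to -4.61 for Actbl2 and -5.51 to -4.36 for Dhrs9, with the lowest Actbl2 value again without WT replicate 2 with CMA. Leaving out 1 library gave -4.32 to -3.99 for Eya2, -4.38 to -4.05 for Frrs1l, -5.18 to -4.04 for Dhrs9, -6.73 to -4.28 for Actbl2 and -4.66 to -3.88 for 1700019D03Rik. The lowest Actbl2 value came without WT replicate 2 with CMA, which held its only read. With 0 reads left, that value and the difference of -7.06 depend on the fit and are no bounds. In STINGgt/gt cells Frrs1l, never called, changed sign without STINGgt/gt replicate 3 with DMSO, replicate 2 with CMA or replicate 3 with CMA (range over left-out libraries -0.0212 to 0.0614).

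The count of 1 among EYA, sine oculis and DACH genes became 3 with no filter (Eya1 and Six4 besides Dach2), 2 with the log2 table (Eya3), stayed at 1 with 10 reads in all libraries, where Eya3 rose (0.12, edgeR adjusted p = 0.0256) and Dach2 was not tested, and 1 to 2 when a library was left out, where the second gene was Eya1, or Eya3 without WT replicate 3 with DMSO. The AMPA receptor count of 8 became 5 at 10 reads in all libraries, where fewer genes were tested. The count of 0 listed genes in STINGgt/gt cells became 1 with DESeq2 (Arpc5), 1 with the replicate block (Rara), 5 with only the 2 groups compared (Rara, Arpc5, Prkacb, Prkar2a and Akap1) and 0 to 2 when a library was left out: 2 without WT replicate 2 with DMSO and 1 without WT replicate 3 with DMSO. The cause was not tested. Dhrs3, not called (0.37), passed with 10 reads in all libraries (0.41, edgeR adjusted p = 0.0387) and with limma on the log2 table (0.40, adjusted p = 0.0273). Dhrs11, not called, went from -0.09 to 0.0104 without WT replicate 2 with DMSO (range over left-out libraries -0.16 to 0.0104).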
